A study of Macaca fascicularis with 24 samples.

Results

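Chemokines are small secreted proteins that guide leukocytes through tissue, and their receptors sit on the cells that respond to them. In aorta of the cynomolgus macaque (Macaca fascicularis), sampled in old and in young animals, 69 probe sets of a human expression array read 52 genes of this system. They were chosen by name: every probe set with 1 gene symbol in the platform annotation that begins with CCL, CXCL, CX3CL, XCL, CCR, CXCR, CX3CR or ACKR and a number. The array holds 22215 probe sets without its controls, of which 19064 carry 1 symbol, for 11963 genes in all. A further 4 probe sets with several symbols, 1 of them of this kind, were left out. The probe sets cover 32 ligand genes, 15 receptor genes and 5 genes of atypical receptors, which bind chemokines without the usual G protein signal.

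Chemokines are grouped by the spacing of the first cysteines of the protein into CC, CXC, CX3C and XC ligands. Inflammatory ligands such as CCL2 and CXCL8 are made on demand and draw monocytes and neutrophils. Homeostatic ligands such as CXCL12, CCL19, CCL21 and CXCL13 are made steadily and place stem cells and lymphocytes. Several members are studied in the artery wall, where CCL2 with CCR2 and CX3CL1 with CX3CR1 take part in the recruitment of monocytes.

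Total RNA of thoracic aorta was hybridised to 24 single-colour arrays, 6 for each sex and age. The mean age was 20.0 years in old males, 6.6 in young males, 21.2 in old females and 7.2 in young females, and the labels name no treatment or genotype. The probes were designed on human transcripts, and where the monkey sequence differs a gene can read too dim in every sample. In 3 cases, numbers 3 and 4 of the young females, 3 and 4 of the young males, and 1 and 4 of the old females, a pair of arrays was near-identical and was averaged, which left 6 old males, 5 young males, 5 old females and 5 young females. The labels do not say that the samples are separate animals, so p-values measure the spread between these samples. The marker genes of smooth muscle, the main cell of the aortic wall, were bright in every sample, with a list mean of 11.91 to 14.31 on the log2 scale used here. Of the 21 samples, 6 stood apart from the rest (old males 2 and 4, young male 1, old females 2 and 6, young female 3). Their arrays had a median correlation with the other arrays of 0.81 to 0.83, against 0.88 to 0.94 elsewhere, and a 3′ over 5′ actin control ratio of 0.79 to 1.73 (log2), against -0.25 to 1.15. The mean log2 level of the hybridisation control probe sets was 12.84 to 14.32 on these arrays, against 11.19 to 12.13 elsewhere, without overlap. These samples are called divergent below, and values without them are given for some of the results.

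Most of this system was dim in the aorta. A level here is log2(intensity + 16) after quantile normalisation, on which the median probe set of a sample lay between 7.67 and 7.70. Of the 69 probe sets, 16 (23.2%), of 14 genes, had a mean at or above 7.59, the median of all means, which by construction 50% of all probe sets reach. Only these 16 were tested for age, since dim values vary with noise. At or above the middle of every sample lay 5 members (7.25%), against 29.8% of all probe sets, and 31 members (44.9%) reached it in no sample, against 26.4%. The 53 members under the filter had means of 4.63 to 7.50, and the 16 tested ones had means of 7.60 to 12.27. Nearest to the limit were CCL19 (7.50), CCL11 (7.36) and CXCR6 (7.35) below it and CCL27 (7.60), CCL5 (7.70) and CCL4 (7.76) above it.

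The files used here carry no detection calls. As a reference for signal without a transcript of the gene itself, genes of the Y chromosome were read in the female samples. Whether their probe sets read related transcripts there was not tested. Their 70 values ran from 4.22 to 8.34 with a median of 5.47, and 7 of them were at 7 or higher. All of these were of RPS4Y1, and the other Y-linked probe sets reached at most 6.89. The highest Y-linked female mean was 7.30, of RPS4Y1, and the next was 6.03. Above 7.30 lay the female means of 23 members, above 6.03 those of 44, and 9 were at or below the median Y-linked mean of 5.36. A dim level of a chemokine probe set is thus within the range that these probe sets gave without a transcript of their own gene. Such a value does not show whether the gene was transcribed.

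**Figure D1:**
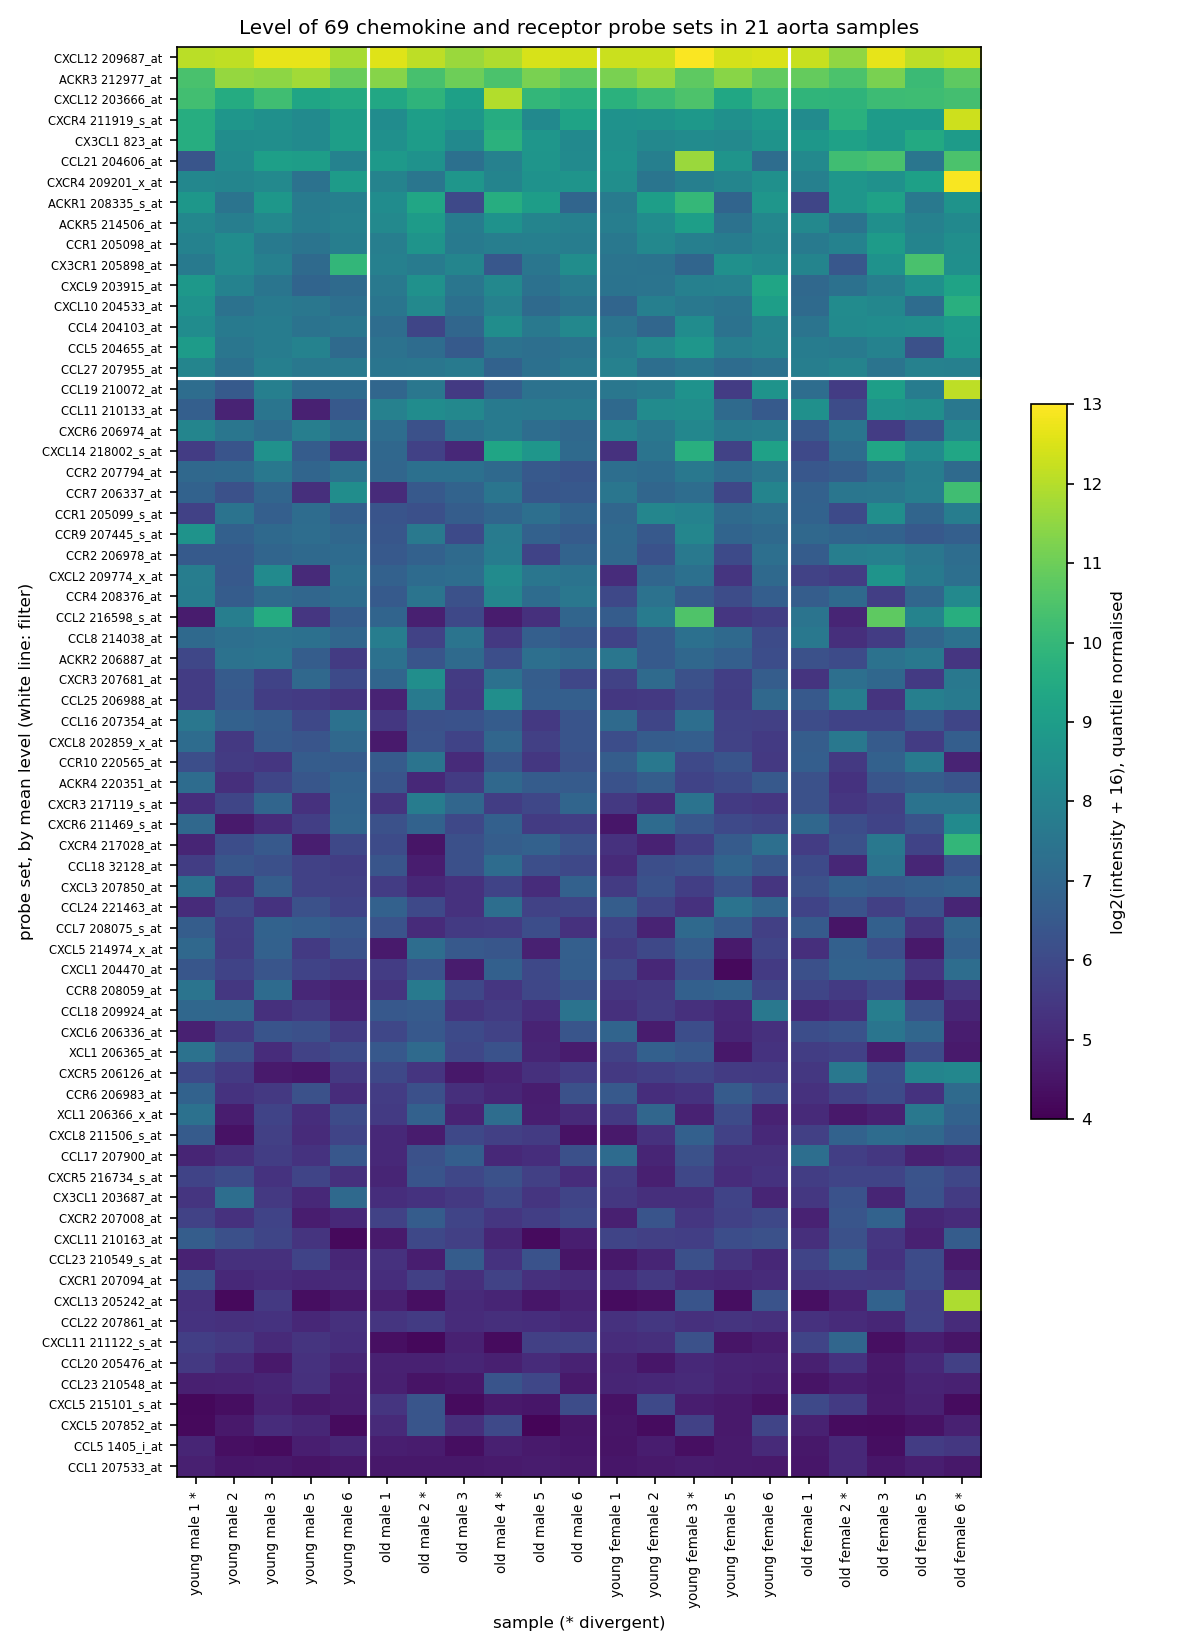
Level of the 69 chemokine and receptor probe sets (rows, in order of their mean) in the 21 samples (columns, grouped by age and sex, divergent samples with a star), coloured by log2(intensity + 16) after quantile normalisation. The 16 rows above the white line passed the filter. Old female 6 is the brightest column for CXCR4, CCL19, CCR7 and CXCL13, at 12.92, 12.10, 10.25 and 11.90.

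Among the ligands, CXCL12 was above the middle of every sample in both of its probe sets and CX3CL1 in 1 of 2. The other ligands that passed the filter were CCL4, CCL5, CCL21, CCL27, CXCL9 and CXCL10. Among 21 CC ligand probe sets 4 passed, among 17 CXC probe sets 4, and of the 2 of XCL1 none. Among the receptors, CXCR4 passed in 2 of 3 probe sets, CCR1 in 1 of 2, and CX3CR1, ACKR1, ACKR3 and ACKR5 in their only one. CXCR4 (211919_s_at) and ACKR3 were above the middle of all 21 samples.

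The ligands under the filter were CCL1, CCL2, CCL7, CCL8, CCL11, CCL16, CCL17, CCL18, CCL19, CCL20, CCL22, CCL23, CCL24, CCL25, CXCL1, CXCL2, CXCL3, CXCL5, CXCL6, CXCL8, CXCL11, CXCL13, CXCL14 and XCL1, with second probe sets of CCL5 and CX3CL1. Their means ran from 4.63 to 7.50. The receptors under the filter were CCR2, CCR4, CCR6, CCR7, CCR8, CCR9, CCR10, CXCR1, CXCR2, CXCR3, CXCR5, CXCR6, ACKR2 and ACKR4, with other probe sets of CCR1 and CXCR4. Their means ran from 5.33 to 7.35. This group holds the neutrophil receptors CXCR1 and CXCR2 and most receptors of lymphocytes.

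Old and young animals were compared in males, in females, over both sexes, and by the difference of the male and female age effects, with limma over all 11108 tested probe sets. None of the 16 members passed an adjusted p of 0.05 in any of the 4 comparisons. Of all tested probe sets 0.018% passed in males and 0% in the other comparisons. In these bulk samples, fewer cells of a type and less RNA per cell cannot be told apart.

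At an unadjusted limma p under 0.05, no member passed in males, where 3.36% of all probe sets did. In females 2 members passed, CX3CL1 and CXCR4, both higher in old animals, where 1.04% of all probe sets passed in that direction. Over both sexes 2 passed, ACKR3 and CCL5, both lower in old animals, against 2.74% of all probe sets, and with the replicate number as a block 0 did. For the difference between the sexes 1 passed, CCL27, where the difference was lower in males than in females, against 0.792% of all probe sets.

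The means of the members leaned upward with age in females. In males 8 of 16 were higher in old animals (47.7% of all tested probe sets were), with a median log2 difference of 0.01 against -0.01 for all. In females 10 of 16 were higher (45.6% of all), with a median of 0.31 against -0.03. The female median was 0.16, with 9 of 16 higher, without old female 6, and it was 0.08 with all 24 arrays counted and 0.10 with the actin ratio as a covariate. In males the median was -0.10, with 4 of 16 higher, without the divergent samples. Over both sexes 12 of 16 were higher (46.1% of all), with a median of 0.09 against -0.02. The male difference exceeded the female one in 6 of 16 (52.8% of all), with a median of -0.33 against 0.02. This median was -0.14 without the divergent samples, -0.10 without old female 6, -0.13 with all 24 arrays counted and -0.09 with the actin ratio as a covariate.

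**Figure D2:**
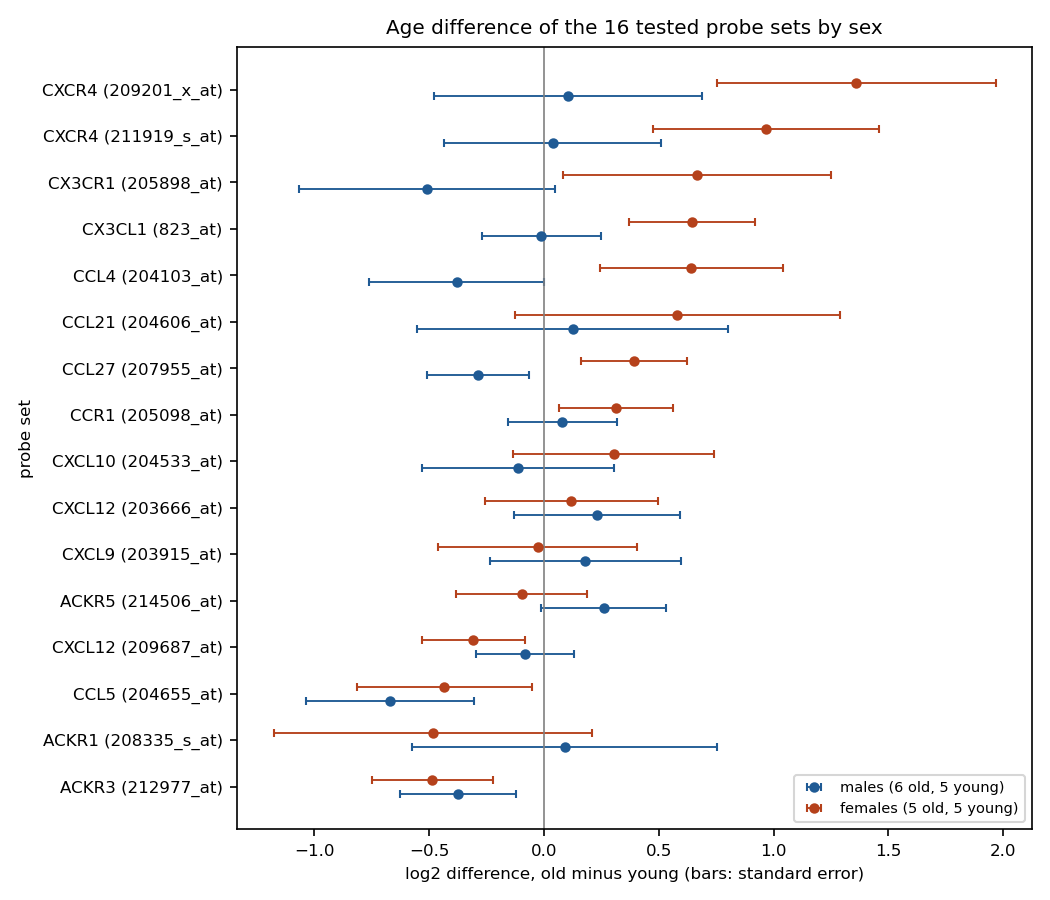
Log2 difference between old and young animals (horizontal axis) of the 16 tested probe sets, in males (blue, 6 old against 5 young) and females (red, 5 against 5), with bars for the standard error of the limma fit. CXCR4 (209201_x_at) has the highest female value, 1.36 ± 0.61, and ACKR3 is below 0 in both sexes.

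**Figure D3:**
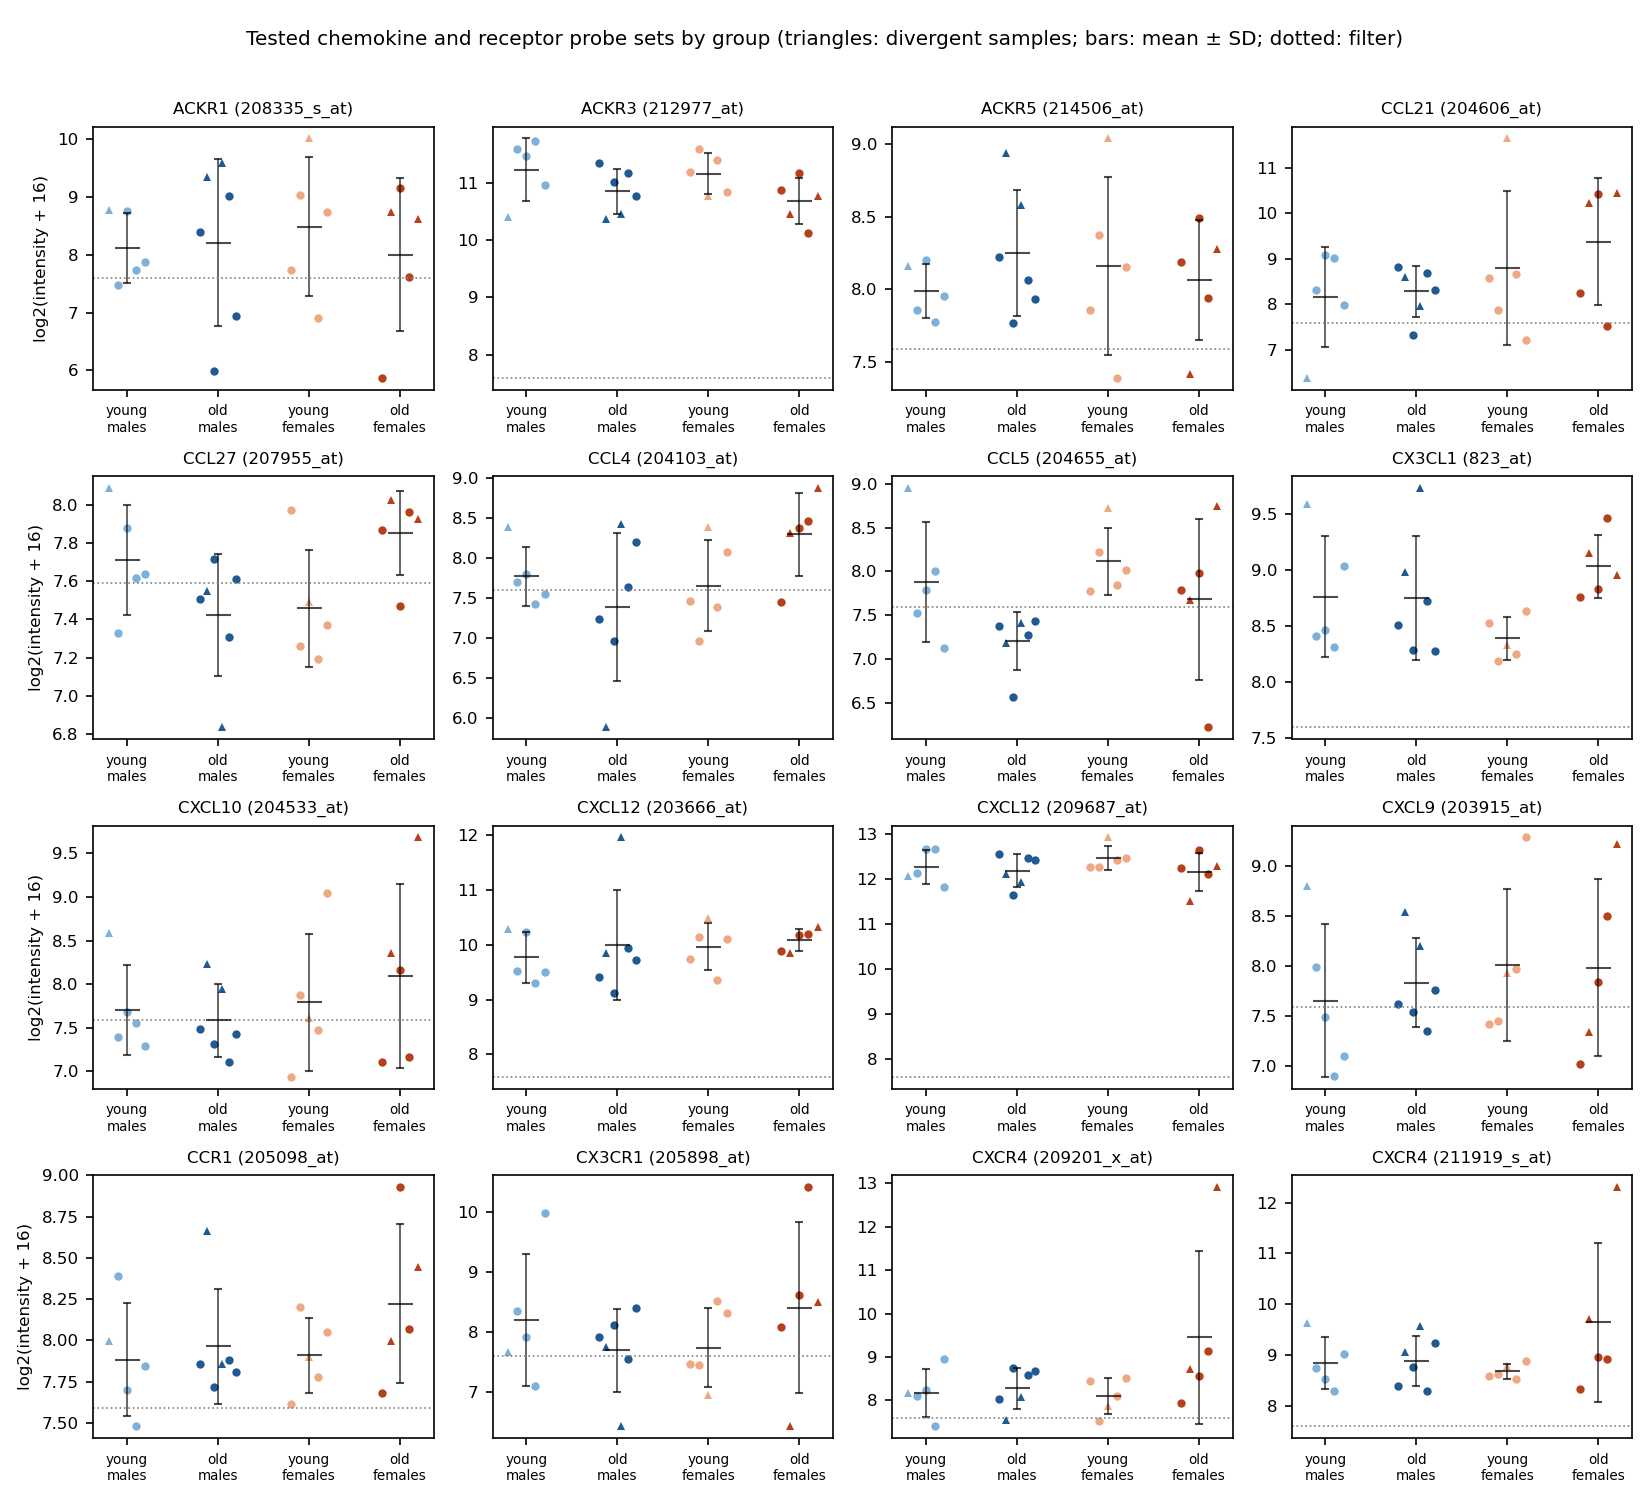
Log2 level of each tested probe set by group, with 1 point per sample, triangles for divergent samples, bars for mean ± SD and a dotted line at the filter limit of 7.59. The panels have their own vertical scales. CX3CL1 separates old from young females, with 8.76 to 9.46 against 8.19 to 8.64, and 1 old female stands far above the rest for CXCR4.

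CXCL12 is the ligand of CXCR4 and also binds the atypical receptor ACKR3, which takes it up and lowers its amount outside the cell. In 209687_at, CXCL12 read 12.07, 12.14, 12.68, 12.67 and 11.83 in young males 1, 2, 3, 5 and 6, and from 11.65 through a median of 12.27 to 12.56 in the 6 old males. Old females 1, 2, 3, 5 and 6 read 12.26, 11.51, 12.66, 12.11 and 12.29, and young females 12.27, 12.27, 12.93, 12.42 and 12.48. The groups overlapped in both sexes. The age difference over both sexes was -0.19 ± 0.15 (SE), with a limma adjusted p of 0.985.

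The other CXCL12 probe set, 203666_at, had an age difference of the other sign in both sexes, 0.23 ± 0.36 in males and 0.12 ± 0.38 in females. In old males it ran from 9.12 through 9.79 to 11.96, and the highest value was that of old male 4. The next of that group was 9.95. Without old male 4 the male difference was -0.16. That sample also had the highest list mean of the endothelial markers, 10.41, against 7.83 to 9.96 in the other samples, and the part of this in the CXCL12 value was not tested.

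ACKR3 was lower in old than in young animals of both sexes. Young males read 10.41, 11.59, 11.47, 11.74 and 10.96, and old males from 10.37 through 10.89 to 11.35. Old females read 10.87, 10.46, 11.18, 10.12 and 10.78, and young females 11.20, 11.60, 10.78, 11.41 and 10.84. The groups overlapped in both sexes, and young male 1, a divergent sample, was low among the young. The difference was -0.38 ± 0.25 in males, -0.49 ± 0.26 in females and -0.43 ± 0.18 over both, with an unadjusted p of 0.0279 and an adjusted p of 0.985 in limma. Over both sexes it lay between -0.53 and -0.36 in all 33 alternatives, and it did not pass the adjusted threshold in any of them.

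CXCR4, the signalling receptor of CXCL12 on leukocytes and progenitor cells, was set apart by 1 sample. In 209201_x_at, old females read 7.93, 8.72, 8.56, 9.13 and 12.92 and young females 8.45, 7.51, 7.88, 8.10 and 8.51. Young males read 8.17, 8.09, 8.23, 7.40 and 8.96, and old males from 7.54 through 8.33 to 8.74. Old female 6 lay 3.79 above the second highest of all 21 samples, and the other 20 lay between 7.40 and 9.13.

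The female difference of this probe set was 1.36 ± 0.61, with an unadjusted p of 0.0363 and an adjusted p of 0.9996 in limma. It was 0.49 ± 0.32 without old female 6, 0.39 without the divergent samples and 0.76 with array weights. The second tested probe set, 211919_s_at, read 8.33, 9.71, 8.95, 8.93 and 12.31 in old females and from 8.53 to 8.88 in young ones. Its difference of 0.97 ± 0.49 became 0.30 without old female 6 and 0.08 without the divergent samples. The third, 217028_at, lay under the filter and read 5.61 to 7.61 in the other old females and 9.97 in old female 6.

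CX3CL1 is a ligand anchored on the surface of endothelial and smooth muscle cells, and CX3CR1 is its receptor on monocytes, macrophages and cytotoxic lymphocytes. Old females 1, 2, 3, 5 and 6 read 8.76, 9.15, 8.83, 9.46 and 8.95 for CX3CL1 (823_at) and young females 8.53, 8.19, 8.33, 8.25 and 8.64. Every old female lay above every young one, which 0.162% of all tested probe sets showed in that direction. The difference was 0.64 ± 0.27, with an unadjusted p of 0.0276 and an adjusted p of 0.9996 in limma, and it ran from 0.50 to 0.71 over the alternatives.

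In males CX3CL1 showed no such difference. Young males read 9.59, 8.41, 8.46, 8.31 and 9.04, and old males from 8.27 through 8.61 to 9.74. The groups overlapped over nearly their whole range, with a difference of -0.01 ± 0.26. The highest male values were those of old male 4 and young male 1, both divergent. The difference between the sexes was -0.66 ± 0.38, with a limma adjusted p of 0.9999. The other CX3CL1 probe set, 203687_at, was dim, at 4.94 to 6.28 in old and 4.95 to 5.80 in young females, which overlapped.

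CX3CR1 varied widely within groups. Old females read 8.07, 6.44, 8.61, 10.41 and 8.49 and young females 7.47, 7.44, 6.94, 8.51 and 8.32. Young males read 7.66, 8.34, 7.91, 7.10 and 9.98, and old males from 6.43 through 7.83 to 8.40. The highest values were those of old female 5 and young male 6. The differences were 0.67 ± 0.58 in females (0.16 without old female 5) and -0.51 ± 0.56 in males (-0.06 without young male 6), and their difference was -1.17 ± 0.81, with a limma adjusted p of 0.9999. The list mean of the red cell genes was 10.34 in old female 5 and 9.52 in young male 6, and also 10.46 in young female 6 and 9.51 in old female 6, against 6.74 to 8.86 in the other samples. Of the 5 red cell genes listed, 3 were measured and 2 passed the filter. HBB was at 14.87 to 15.21 in the samples named and at most 13.72 elsewhere. HBD was highest in old male 4, and ALAS2 was 8.20 in old female 5 but 5.51 in young male 6. The part of blood in the CX3CR1 values was not tested.

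CCL5 and CCL4 are inflammatory ligands made by T cells, NK cells and macrophages. For CCL5 (204655_at) young males read 8.95, 7.52, 7.78, 8.0 and 7.12, and old males from 6.56 through 7.33 to 7.44. Old females read 7.79, 7.67, 7.98, 6.22 and 8.75 and young females 7.77, 8.23, 8.72, 7.84 and 8.01. Levels were on average lower in old animals of both sexes with overlap, and old female 5 was the lowest sample. The difference was -0.67 ± 0.37 in males, -0.43 ± 0.38 in females and -0.55 ± 0.26 over both, with an unadjusted p of 0.0487 and an adjusted p of 0.985 in limma. The female difference was -0.07 without old female 5, and the male one was -0.40 without young male 1, a divergent sample. Its second probe set, 1405_i_at, was dim, with group means of 4.62 to 5.0.

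For CCL4 old females read 7.45, 8.31, 8.38, 8.46 and 8.87 and young females 7.45, 6.96, 8.38, 7.38 and 8.07. Young males read 8.38, 7.69, 7.79, 7.43 and 7.55, and old males from 5.88 through 7.43 to 8.42. The difference was 0.64 ± 0.40 in females and -0.38 ± 0.38 in males, with overlap in both. The male difference was -0.08 without old male 2, a divergent sample. The difference between the sexes was -1.02 ± 0.55, with a limma adjusted p of 0.9999. CCR1, a receptor for CCL5 on monocytes, had group means of 7.88 to 8.22 in 205098_at, with a difference of 0.31 ± 0.25 in females and 0.08 ± 0.24 in males. In 205099_s_at its mean was 7.21 in old and 7.50 in young females, so the probe sets differed in sign.

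CCL27, known as a skin chemokine that draws T cells through CCR10, lay close to the limit of the filter. Old females read 7.86, 8.03, 7.47, 7.96 and 7.93 and young females 7.97, 7.26, 7.49, 7.19 and 7.37. Young males read 8.09, 7.33, 7.88, 7.62 and 7.64, and old males from 6.84 through 7.53 to 7.72. The difference was 0.39 ± 0.23 in females and -0.29 ± 0.22 in males, with overlap in both. Between the sexes it differed by -0.68 ± 0.32, with an unadjusted p of 0.0452 and an adjusted p of 0.9999 in limma, and by -0.40 without the divergent samples.

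CXCL9 and CXCL10 are ligands of CXCR3 that interferon induces and that draw T cells. CXCL9 read 7.03, 7.34, 7.85, 8.50 and 9.22 in old females, 7.42, 7.46, 7.93, 7.97 and 9.29 in young females and 8.80, 8.0, 7.49, 6.90 and 7.11 in young males. In old males it ran from 7.36 through 7.69 to 8.55. CXCL10 read 7.10, 8.36, 8.16, 7.17 and 9.68 in old females, 6.94, 7.88, 7.62, 7.47 and 9.05 in young females and 8.58, 7.39, 7.68, 7.56 and 7.29 in young males. In old males it ran from 7.11 through 7.46 to 8.23. Old female 6, young female 6 and young male 1 held the 3 highest values of each gene. The age differences were small beside their errors. For CXCL9 and CXCL10 they were 0.18 ± 0.42 and -0.11 ± 0.42 in males and -0.03 ± 0.43 and 0.30 ± 0.44 in females. The female difference of CXCL10 was -0.36 without the divergent samples.

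The other atypical receptors showed no age difference beyond the spread. ACKR1, a chemokine sink on red cells and venous endothelium, read 5.87, 8.73, 9.16, 7.62 and 8.62 in old females, 7.74, 9.04, 10.01, 6.91 and 8.74 in young females and 8.77, 7.47, 8.75, 7.74 and 7.87 in young males. Old males ran from 5.98 through 8.70 to 9.59. Its differences were 0.09 ± 0.66 in males and -0.48 ± 0.69 in females, and the male one was -0.37 without the divergent samples. ACKR5, also known as GPR182 and present on endothelium, read 8.19, 7.42, 8.49, 7.94 and 8.28 in old females, 7.86, 8.37, 9.04, 7.39 and 8.15 in young females and 8.16, 7.86, 8.20, 7.78 and 7.96 in young males. In old males it ran from 7.77 through 8.14 to 8.93. Its highest samples were young female 3 at 9.04 and old male 2 at 8.93, both divergent, and its male difference was 0.26 ± 0.27, with a limma adjusted p of 0.9999.

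Old female 6 stood apart in several members. It was the highest of the 21 samples in 15 of 69 members (21.7%), against 9.43% of all probe sets. A lead of more than 2 log2 units over the second sample was found in 5 members, all in old female 6, and such a lead in any sample in 0.446% of all probe sets. They were CXCL13, CCL19 and the 3 probe sets of CXCR4, and these genes and CCR7, CCL21 and CXCR5 are described here after their values were seen.

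CXCL13, which draws B cells into follicles, read 11.90 in old female 6, 6.83 in old female 3 and at most 6.35 in the other samples, whose lowest was 4.24. In the deposited intensities it was 3482 on that array and between 1.6 and 101.8 on the other 23. Its receptor CXCR5 (206126_at) read 5.45, 7.59, 6.11, 8.05 and 8.18 in old females 1, 2, 3, 5 and 6 and 5.48 to 5.84 in young females. So 4 of 5 old females lay above all young ones, and old female 1 lay below them. This order rests on the averaging of young females 3 and 4, which differed here, at 12.2 and 159.6 in deposited intensity. The latter array was above that of old female 3, at 38.6. In 216734_s_at, CXCR5 ran from 5.63 to 6.32 in old and 4.78 to 5.91 in young females, with old female 6 at 5.91.

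CCL19 and CCL21 draw T cells and dendritic cells through CCR7. CCL19 read 7.22, 5.59, 9.04, 7.76 and 12.10 in old females, 7.55, 7.75, 8.58, 5.61 and 8.61 in young females and 7.21, 6.56, 7.89, 7.15 and 7.14 in young males. In old males it ran from 5.52 through 7.19 to 7.55, so old female 6 alone lay far above the groups. CCR7 read 10.25 in old female 6 and 6.80 to 7.84 in the other old females, against 5.93 to 8.07 in young females, and the second highest sample was young male 6 at 8.42.

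CCL21 did not follow this order. It read 8.24, 10.24, 10.43, 7.52 and 10.46 in old females, 8.59, 7.87, 11.65, 8.67 and 7.21 in young females and 6.38, 8.32, 9.09, 9.03 and 7.98 in young males. The old males ran from 7.32 through 8.45 to 8.82. Young female 3 was the highest, with old female 6 second. The age difference was 0.58 ± 0.71 in females and 0.12 ± 0.68 in males. Neither sign was stable. The female difference was 0.18 without young female 6, 1.29 without young female 3 and -0.08 with all 24 arrays counted, and the male one was -0.32 without young male 1.

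Markers of lymphocytes were high in the same sample. The 5 measured B and plasma cell genes of the 6 listed had a mean of 9.78 in old female 6. Without it the list ran from 6.19 to 7.20 in old females, 6.12 to 7.68 in young females, 6.43 to 7.29 in old males and 6.14 to 7.23 in young males. The 10 T and NK cell genes had a mean of 8.40 there, against 6.11 to 7.58 elsewhere. Of these, CD3E, PRF1 and NKG7 were not highest there, at 7.12, 7.85 and 4.76, and the others were. Only 1 of the B and plasma cell genes and 2 of the T and NK cell genes passed the filter. In old female 6 the smooth muscle list was at its lowest, 11.91, against 12.33 to 14.31 elsewhere. The part of these cells in the values of old female 6 was not tested.

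**Figure D4:**
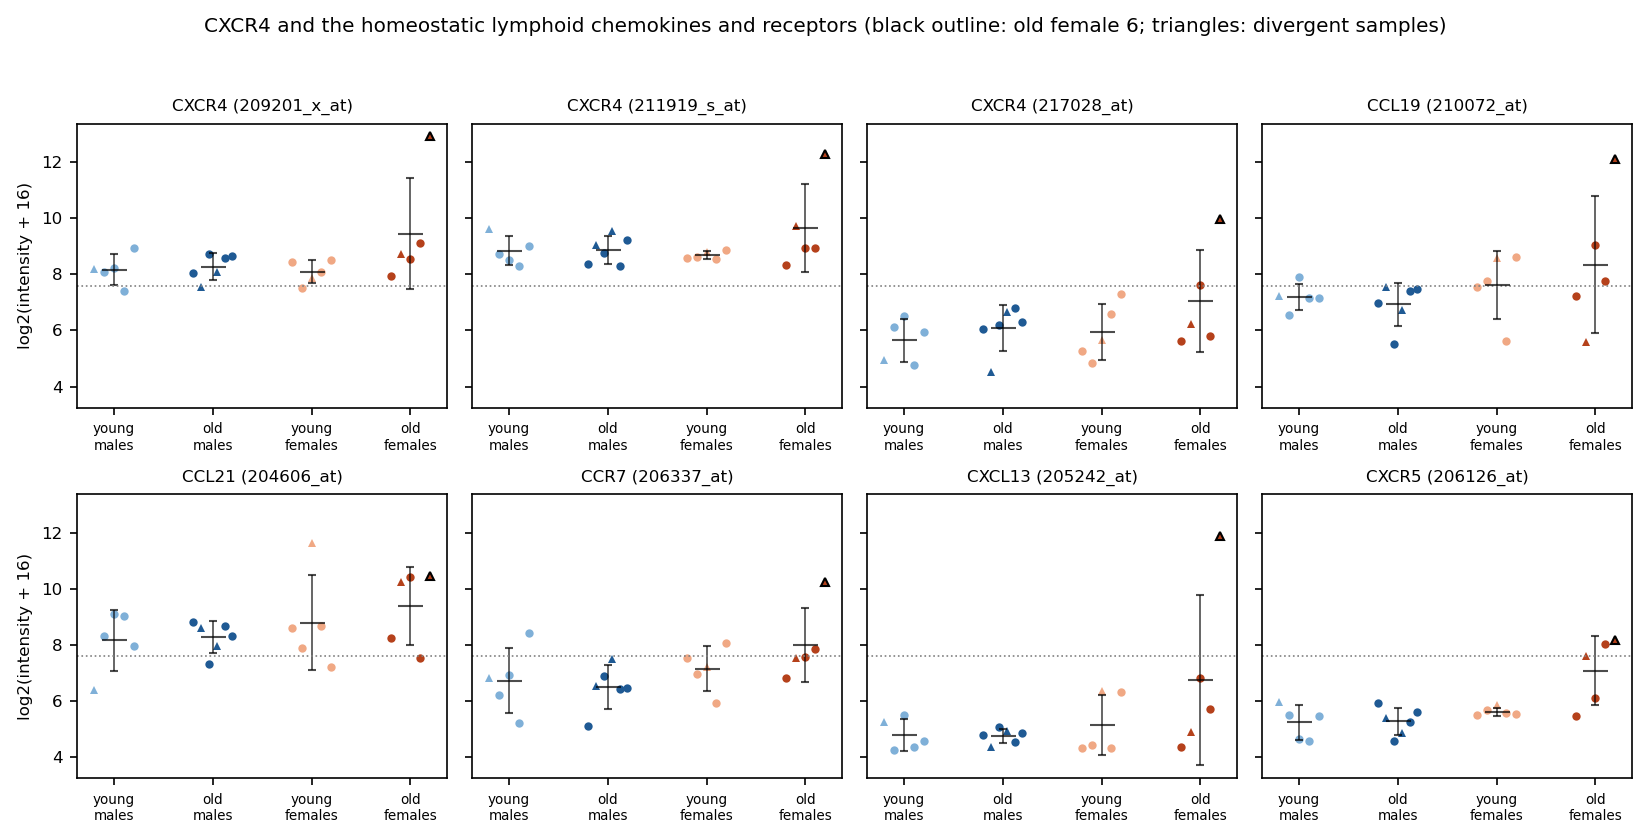
Log2 level of the 3 CXCR4 probe sets and of CCL19, CCL21, CCR7, CXCL13 and CXCR5 by group, on a common vertical axis, with bars for mean ± SD, a dotted line at 7.59 and old female 6 outlined in black. Old female 6 is the highest point in all panels but that of CCL21, where young female 3 (11.65) lies above it.

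Among the 53 members under the filter, a fit of all 22215 probe sets without the filter gave values that carry more noise. None passed an adjusted p of 0.05 in limma, as in 0% of all probe sets in each comparison. Over all 69 members, 2 were under an unadjusted p of 0.05 in males (3.93% of all probe sets), 7 in females (4.01%), 6 over both sexes (5.08%) and 3 for the difference between the sexes (2.88%). In females 6 of the 7 were higher in old animals, where 2.05% of all probe sets were. The members named from this fit were chosen after their values were seen.

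CCL11, the eotaxin that draws eosinophils through CCR3, was higher in old males. Young males read 6.72, 4.89, 7.49, 4.83 and 6.51, and old males from 7.63 through 7.82 to 8.39. All 6 old males lay above all 5 young ones, which 0.293% of all probe sets showed in that direction. Young males 3 and 4, which were averaged, were at 143.6 and 178.4 in deposited intensity. The latter array was above those of old males 5 and 6, at 158.7 and 171.1. The difference was 1.83 ± 0.51, with an unadjusted p of 0.0015 and an adjusted p of 0.99995 in limma, and it was 1.52 to 2.19 with each sample left out and 1.94 without the divergent samples. The list mean of the adipocyte genes, of which all 6 were measured and 3 passed the filter, was also higher on average in old males, with overlap. It averaged 8.93 in old males, from 7.15 to 9.82, and 7.75 in young males, from 6.5 to 9.89, and its part in the CCL11 values was not tested.

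In females CCL11 was spread over the same range in both ages. Old females read 8.52, 6.08, 8.57, 8.45 and 7.59 and young females 7.07, 8.34, 8.40, 7.10 and 6.56. Over both sexes the difference was 1.09 ± 0.37. CCL16, a ligand made mainly in the liver, had the only other male difference under an unadjusted p of 0.05, -0.79 ± 0.36, with 5.44 to 6.63 in old and 5.95 to 7.56 in young males.

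CXCL8, CXCL1 and CXCL3, which draw neutrophils through CXCR2, were among the female values under an unadjusted p of 0.05. CXCL8 (211506_s_at) read 5.70, 6.84, 7.17, 7.04 and 6.56 in old females and 4.62, 5.29, 6.75, 5.74 and 5.03 in young females. In young males it read 6.59, 4.43, 5.69, 5.11 and 5.85, and in old males from 4.45 through 5.30 to 5.95. The female difference was 1.18 ± 0.43, and 1.47 without the divergent samples. The other probe set, 202859_x_at, had means of 6.62 in old and 6.15 in young females and 5.97 in old and 6.53 in young males.

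CXCL1 had a female difference of 1.12 ± 0.42 and CXCL3 one of 0.80 ± 0.38, each with overlap between old and young. For CXCL2, of the same group, old females read 5.78, 5.58, 8.67, 7.70 and 7.29 and young females 5.15, 6.93, 7.34, 5.41 and 7.07. Young males read 7.82, 6.5, 8.30, 5.09 and 7.31, and old males from 6.79 through 7.31 to 8.35. The CXCL2 groups overlapped in both sexes. The other CXCR2 ligands of the list were not under that p in females: CXCL6 differed by 0.73 ± 0.48, and the 3 probe sets of CXCL5 by -0.46 ± 0.37, 0.18 ± 0.52 and 0.21 ± 0.40. The adjusted p of CXCL8, CXCL1 and CXCL3 was 0.9988 in females.

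CXCR5 and CXCR6, receptors of B and T cells, differed with opposite signs in the female means. The difference was 1.46 ± 0.44 for CXCR5 (206126_at), 1.18 without old female 6 and 0.98 without the divergent samples. For CXCR6 (206974_at), it was -0.99 ± 0.39, from 5.6 to 8.20 in old and 7.60 to 8.15 in young females, and it was -0.68 without old female 3 and -1.59 without the divergent samples. In 211469_s_at the CXCR6 means were 6.71 in old and 5.99 in young females, the other sign. CCL25, a ligand for gut homing of lymphocytes, differed by 1.02 ± 0.40 over both sexes, and by 0.43 without the divergent samples. The smallest adjusted p of these in limma was 0.942.

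CCL2, the main monocyte chemokine, was dim on average but had a wide range. Old females read 7.45, 4.92, 10.75, 8.02 and 9.66 and young females 6.61, 7.76, 10.51, 5.41 and 5.63. Young males read 4.68, 7.86, 9.55, 5.43 and 6.61, and old males from 4.68 through 5.6 to 6.94. High samples occurred in 3 of the 4 groups, and no old male reached 7. Old female 3, the highest, also had the highest list mean of the macrophage genes, 9.80, of which 10 of 11 were measured and 7 passed the filter. That list ran from 7.99 to 9.59 in the other old females, 8.34 to 9.05 in young females, 7.89 to 8.61 in old males and 7.74 to 8.60 in young males, and it was 8.69 in young female 3, the second highest for CCL2. The list mean of the 5 fibroblast genes, of which 4 passed the filter, was 12.60 in old female 3 and 12.38 in young female 3, against 10.55 to 11.86 in the other samples. Next for CCL2 came old female 6 and young male 3. Their fibroblast means were 11.33 and 11.81, and their macrophage means 9.59 and 8.12. The part of either list in CCL2 was not tested.

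**Figure D5:**
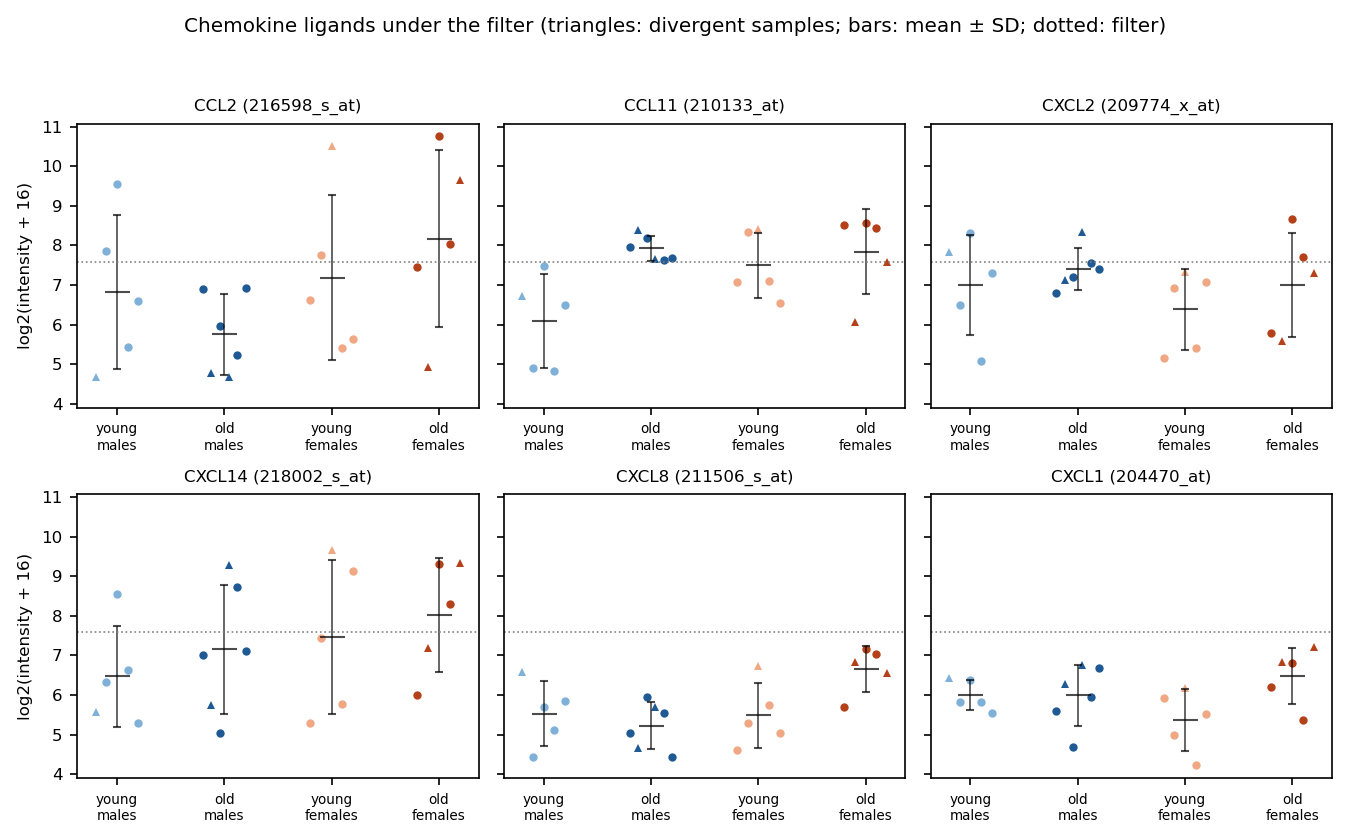
Log2 level of 6 ligands under the filter by group, on a common vertical axis, with 1 point per sample, triangles for divergent samples, bars for mean ± SD and a dotted line at 7.59. CCL11 lies between 7.63 and 8.39 in old males and between 4.83 and 7.49 in young males, and CCL2 spreads from 4.68 to 10.75.

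Of 8 pairs of a ligand with its receptor, or of ligands known to be induced together, 3 had both members above the filter. Their correlation was taken over deviations from the group means in the 15 samples that were not divergent, with 2-sided permutation tests within groups and adjustment over the 3 pairs. For CXCL9 with CXCL10, Pearson's r was 0.604 (permutation p = 0.159, adjusted 0.239) and Spearman's rho 0.539 (p = 0.118, adjusted 0.177). Over all 21 samples r was 0.741 (permutation p = 0.00213, adjusted 0.00639), while rho was 0.505 (permutation p = 0.0497, adjusted 0.149) and did not pass. Without the 2 of the 15 samples that lay farthest from the median of CXCL9, r was 0.428.

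For CX3CL1 with CX3CR1, r was 0.68 (permutation p = 0.0558, adjusted 0.167) and rho 0.589 (p = 0.0619, adjusted 0.177). It was -0.063 over all 21 samples and -0.0938 without old female 5 and young male 6, so the relation rests on those samples. For CXCL12 with CXCR4, r was -0.338 (permutation p = 0.347, adjusted 0.347) and rho -0.366 (p = 0.265, adjusted 0.265), and r was -0.125 without young male 6 and old male 3. No pair passed the adjusted threshold in the 15 samples.

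Several chemokine genes lie next to each other in the macaque genome. In the RefSeq annotation of the T2T-MFA8v1.1 assembly, 45 of the 52 genes were matched by symbol or synonym, and 19 of them formed 7 runs of direct neighbours. The 7 not matched were CCL4, CCL23, CXCL2, CXCL3, CXCL5, CXCL12 and CXCR2, so runs can be longer than counted. CCL2, CCL7, CCL11 and CCL8 formed 1 run of 4. In it, CCL11 alone had old and young males without overlap, after the averaging of the near-identical arrays. CXCL11, CXCL10 and CXCL9 formed another, of which the last 2 passed the filter. CX3CL1 lay between CCL22 and CCL17, which were both dim, with means of 5.26 and 5.66. CCL21, CCL19 and CCL27 formed a further run.

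Genes that work with chemokines were described from a list of signalling partners and modifiers. Of 34 such genes on the array 24 were tested, and none passed an adjusted p of 0.05 in limma in any comparison. Higher in old animals were 14 of 24 in males and 16 of 24 in females, against 3348 and 3231 of all 6952 tested genes. The median difference was 0.04 in males and 0.13 in females, against -0.01 and -0.02 over all tested genes. At an unadjusted limma p under 0.05 there was 1 in females and none in males, against 200 and 252 of the 6952. The female one was PPBP, a platelet chemokine whose symbol lies outside the naming rule. Its mean was 8.53 ± 1.09 (SD, n = 5) in old and 6.90 ± 1.37 (n = 5) in young females. DPP4, a protease that trims and inactivates several chemokines, had differences of 0.54 ± 0.36 in males and 0.52 ± 0.38 in females. RAC2, a leukocyte GTPase downstream of chemokine receptors, had differences of 1.01 ± 0.58 in females and -0.47 ± 0.55 in males.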

How the data were processed

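The labels' protocols say that total RNA of thoracic aorta was reverse-transcribed and turned into biotin-labelled antisense RNA. Per the authors' deposited table, each probe set has 1 linear intensity per array. The method behind it is not stated in the labels read here. Array medians ran from 144.2 to 264.1 in intensity, and the number of arrays limits the precision. Groups came from the titles. After 62 control probe sets were dropped, log2(intensity + 16) was quantile normalised. Each of 3 near-identical array pairs (log2 differences with an SD up to 0.38, where the rest of the 276 pairs started at 0.43) was averaged and named by its lower number. Probe sets with a mean at or above the median of means were tested with limma 3.58.1 in R 4.3.3 (1 mean per group, empirical Bayes with trend, Benjamini-Hochberg adjustment over 11108 probe sets, threshold 0.05). The pseudocount understates changes of dim genes. The model was tested on simulated data.

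The members, gene lists and pairs were chosen with earlier results of these data known. Named with full statistics were, per comparison, up to 5 tested members with the smallest p, since none passed. Values in every sample are given for these and for the listed pairs, except that old males have the lowest, median and highest only. Marker lists use 1 probe set per gene, the brightest on average. Replicate numbers of the titles were not used to pair the samples in the main fit. The correlation of same-numbered samples' deviations was -0.43 to 0.51 with a median of 0.07, and 14 of 30 pairs were over 0.1. The median for other numbers was -0.003. With so wide a spread, these values do not settle whether the numbers pair the samples. Alternatives were 33 settings, of which 21 left out 1 sample each.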

Additional observations from a re-analysis of the deposited data

Results flagged for a closer look

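In each group of 5 or 6 samples, the highest and the lowest sample of each of the 69 members was compared with its nearest neighbour. In 15 of 276 groups the gap was a large part of the whole range (Dixon's test at the 95% level), 10 with a high and 5 with a low sample, and chance flags about 1 in 20 groups.

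The high samples were old female 6 for CXCR4 (209201_x_at) at 12.9, old male 4 for CXCL12 (203666_at) at 12, old male 2 for CCR1 (205098_at) at 8.66, old male 5 for CCL20 at 5.12, young male 1 for CCR9 at 8.64 and CXCR1 at 6.25, young male 2 for CCL25 at 6.53, young female 2 for CXCL5 (215101_s_at) at 5.99, young female 3 for CXCR3 (217119_s_at) at 7.42 and young female 6 for CCL18 (209924_at) at 7.62. The low samples were old female 3 for CCL27 at 7.47, old male 2 for CXCR4 (217028_at) at 4.51, old male 3 for CCL5 (204655_at) at 6.56, young male 2 for CCL7 at 5.6 and young male 5 for CCL22 at 4.99. Only CXCR4 (209201_x_at), CXCL12, CCR1, CCL5 and CCL27 among these passed the filter on low values.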

How the results depend on the processing

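In 33 alternatives no member passed the adjusted threshold in any comparison. All 20 differences that the naming rule chose, by their small p, kept their direction. Many others changed sign in some setting. Among them were CCL21, CXCL9, CXCL10, ACKR1 and CXCL12 (203666_at) in both sexes, ACKR5 in females, and CCR1, CX3CL1 and CXCR4 in males. With a replicate block, 0 members passed in each comparison, and the block changed no adjusted call of a member. After the averaging only old males had a number 4, so the block also took old male 4 out of the comparisons. The male median of the members was -0.17 with the block and also without old male 4. At an unadjusted limma p under 0.05, the block took the count over both sexes from 2 (ACKR3 and CCL5) to 0, that in females from 2 to 3 and that of the difference between the sexes from 1 to 2, and it stayed at 0 in males. Among all probe sets, the 2 that passed in males became 25 with array weights, 3 without the divergent samples, 1 with the actin ratio as a covariate and 0 to 2 under the other settings, leaving out 1 sample included, and over both sexes 1 passed without the divergent samples and 1 with the replicate block, where the main count was 0. The cause was not tested. The correlation of CX3CL1 with CX3CR1 turned from 0.68 to -0.063 over all 21 samples and to -0.094 without the 2 samples farthest from the median, and for CXCL9 with CXCL10 over all 21 samples Pearson's r of 0.741 passed (adjusted permutation p = 0.00639) while Spearman's rho of 0.505 did not (adjusted 0.149). Dim signal limits what can be said of the 53 members under the filter.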
